A study of Pyronema omphalodes CBS 100304 with 9 samples.

Results

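Of the 13369 gene models of the ascomycete fungus Pyronema omphalodes (also called Pyronema confluens), 51 carried a product description that named a superoxide dismutase, catalase, peroxidase, peroxiredoxin, thioredoxin, glutaredoxin or glutathione enzyme. These 51 genes were the redox enzymes described here, and they were selected by the wording of the description. Superoxide dismutases turn superoxide, a by-product of respiration, into hydrogen peroxide, and catalases and peroxidases then remove the peroxide. Peroxiredoxins, thioredoxins and glutaredoxins carry electrons from NADPH to peroxides and to disulfide bonds in proteins, and glutathione is the small thiol that feeds glutaredoxins, glutathione peroxidases and glutathione S-transferases. In filamentous ascomycetes, reactive oxygen species made by NADPH oxidases take part in fruiting-body formation, which ties this network to development. Product descriptions are transferred from similar proteins elsewhere, and the function of each gene in this fungus is not established by its name.

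Transcripts were counted by RNA sequencing in 9 libraries of strain CBS 100304, which was the only strain, and no mutant or added agent was labelled. Protoapothecia, the young fruiting bodies, were represented by 3 libraries, A, B and C, labelled as independent biological replicates. They were grown for 4 d at 25 °C on slides with 150 µl of WPC medium and 0.8% agar, fixed in ethanol at 4 °C and cut out by laser, and their RNA was amplified linearly; the light condition of the slides is not stated. Sexual mycelium (surface cultures in WPC medium under constant light), vegetative mycelium (the same in constant darkness) and a vegetative pool had 2 libraries each. The first 2 of these groups were RNA pools of days 3, 4 and 5. They differed in light, so light and sexual development cannot be told apart between sexual and vegetative mycelium. The vegetative pool combined RNA of submerged WPC cultures in light and in darkness with RNA of dark surface cultures on BMM, another medium, all after 3 d. The RNA of all mycelium groups was bulk RNA from previous work by the submitters, so wherever protoapothecia are compared with mycelium, stage and preparation cannot be told apart. Every mycelium library carries a label of technical replication, separate cultures for libraries 1 and 2 are not stated, and the p-values may therefore measure technical spread. In bulk RNA, fewer cells of a type and less RNA per cell cannot be told apart.

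Total counts were 24494613, 5583951 and 24803660 in protoapothecia A, B and C and 14265890 to 22132904 in the mycelium libraries, so protoapothecia B was the shallowest library. The redox enzymes took 0.580% to 0.812% of the counts in protoapothecia, 0.594% to 0.657% in sexual mycelium, 0.758% to 0.796% in vegetative mycelium and 0.892% to 0.960% in the vegetative pool. Levels are given as CPM, which are counts scaled to library size with TMM factors and compare 1 gene between libraries. TPM, which also divides by the length of the spliced gene model, is used where genes are set beside each other. A low-count filter kept 50 of the 51 genes among 11787 tested. The gene left out was the glutathione S-transferase PCON_06510, with 0 counts in every library. Differences are log2 fold changes ± standard error from edgeR's quasi-likelihood test, and a gene was called at an adjusted p below 0.05. The order of the groups in each comparison is the order in which they are named.

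Redox enzymes differed between protoapothecia and mycelium in both directions. A microsomal and a kappa-type glutathione S-transferase, a Pmp20-like peroxiredoxin and glutathione synthetase were higher in protoapothecia than in every mycelium group, and the Cu-Zn superoxide dismutase PCON_05187, cytochrome c peroxidase PCON_01441 and 2 genes of formaldehyde removal, PCON_14184 and PCON_03459, were lower. Some of these calls depended on single libraries, as given below. Against sexual mycelium, 17 of 50 were higher in protoapothecia (background 26.7% of all genes tested) and 16 were lower (background 34.5%). Against vegetative mycelium 14 were higher (background 36.4%) and 15 lower (background 32.8%), and against the vegetative pool 16 were higher (background 34.8%) and 22 lower (background 34.4%). Most of these shares lie near those of all genes. Lower calls against the pool, at 44.0% of the members, and higher calls against vegetative mycelium, at 28.0%, lie farthest from the background, and those differences were not tested. The median log2 fold change of the 50 genes was −0.03, −0.09 and −0.40 in the 3 comparisons, beside −0.14, 0.15 and 0.05 over all genes tested. The 3 comparisons share the protoapothecium libraries, so their calls are not independent of each other. The counts of single classes and lists given below are small, are to be read against these background shares, and were not tested. Set side by side, 11 genes were called higher in protoapothecia in all 3 comparisons, 10 were called lower in all 3, and 7 were called in none. The matching joint counts over all genes tested were not made, so these counts are not read as a trait of redox enzymes.

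**Figure D1:**
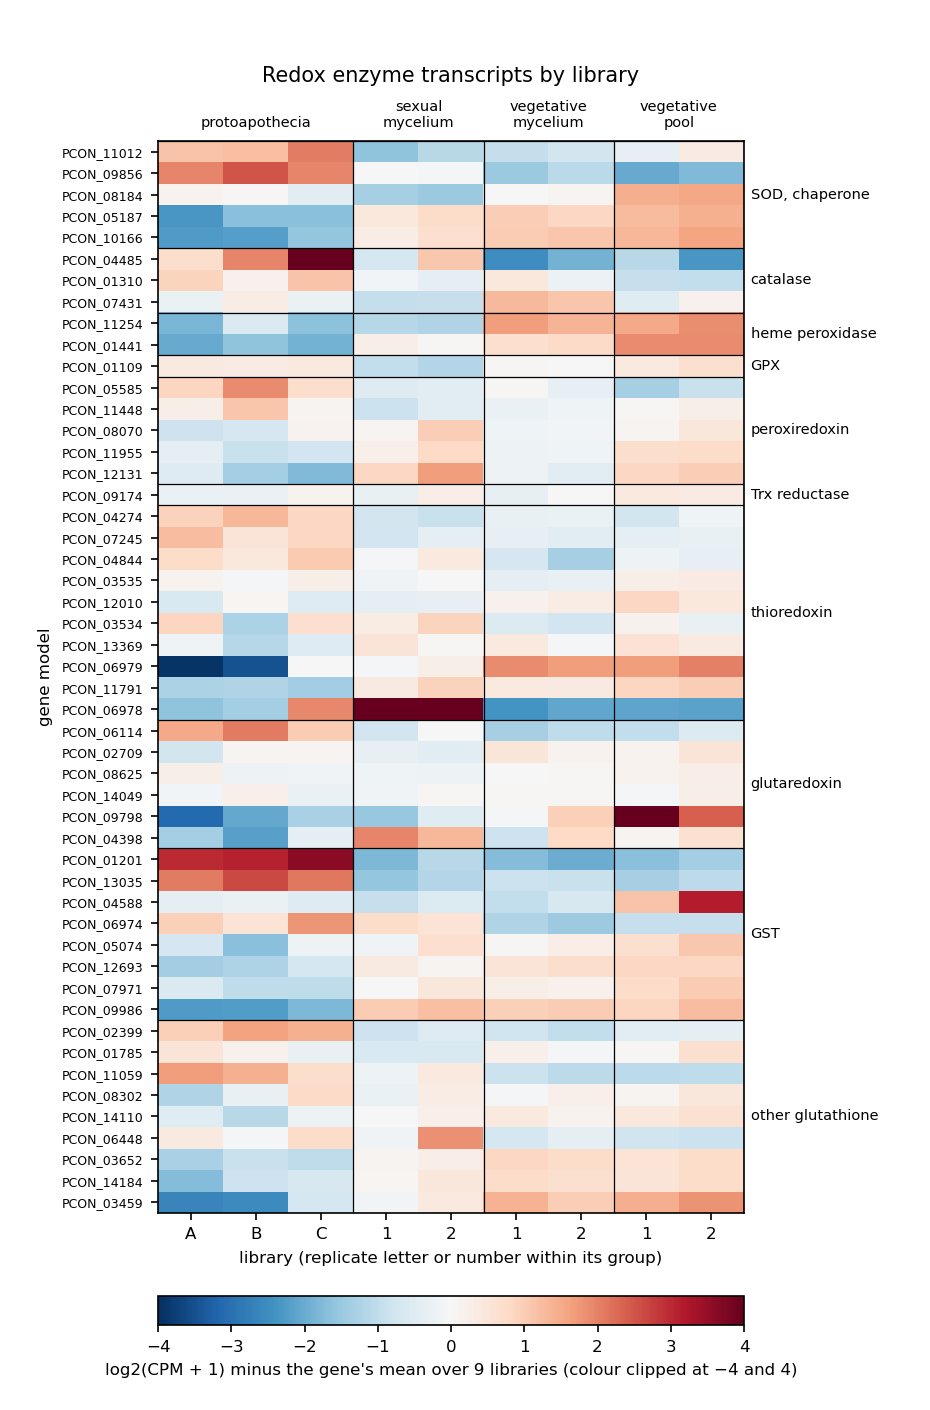
Levels of the 50 tested redox enzymes (rows, grouped by class) in the 9 libraries (columns), as log2(CPM + 1) minus each gene's mean over the libraries, red above and blue below it. Most classes hold both red and blue rows in the protoapothecium columns, and protoapothecia C departs from A and B for PCON_04485, PCON_06978 and PCON_06979.

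**Figure D2:**
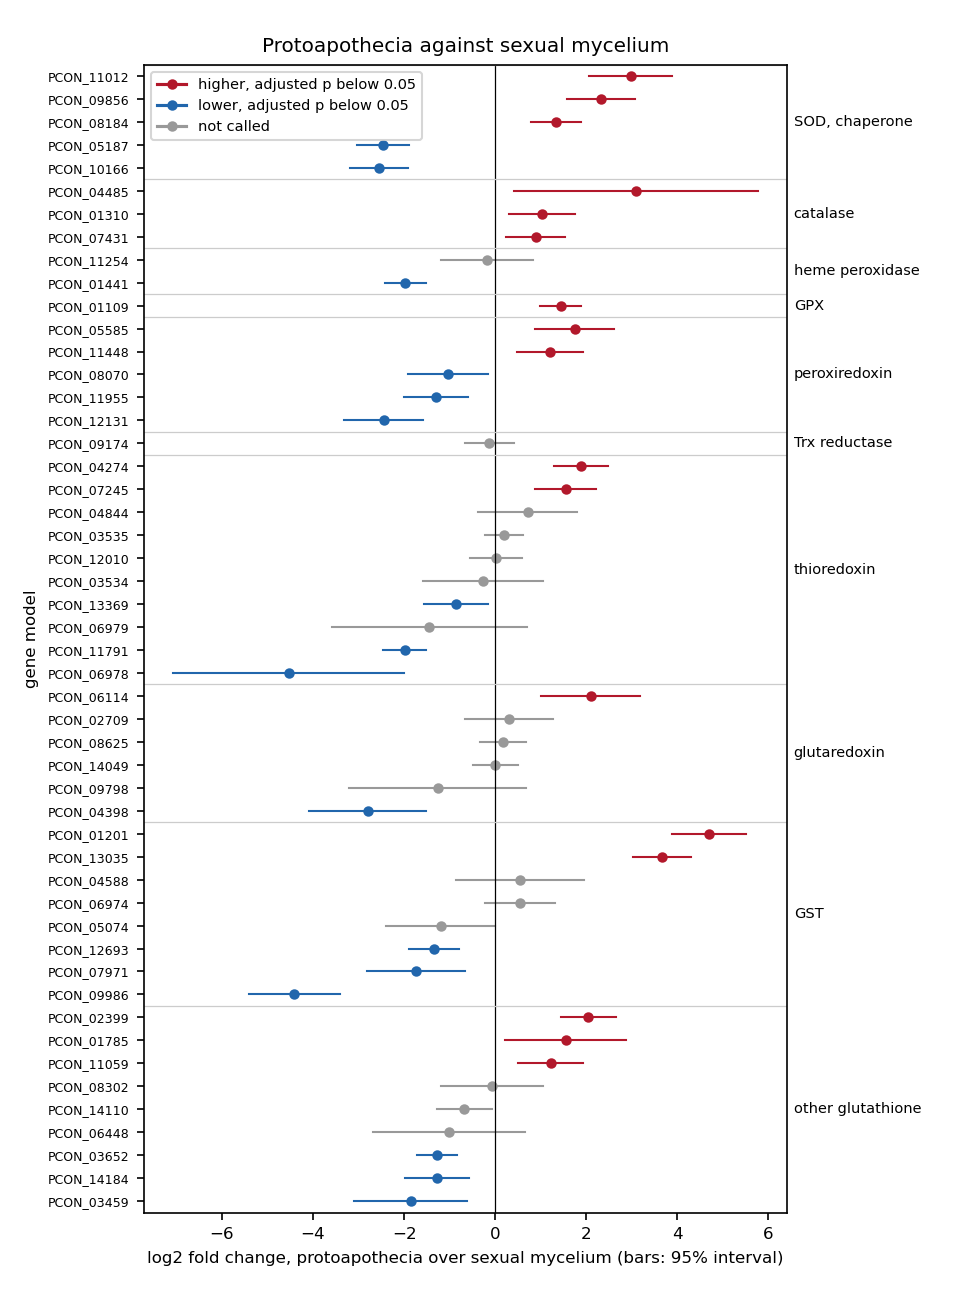
Log2 fold change of each tested redox enzyme in protoapothecia over sexual mycelium (x axis), with its 95% interval, by class (rows). Of the 50 genes, 17 were higher (red), 16 lower (blue) and 17 not called (grey), and the 3 catalases were all higher.

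Among the superoxide dismutases, copies of the same enzyme type differed in opposite directions. The Cu-Zn enzyme PCON_05187 (scaffold 199, 152030 to 153193, plus strand), with the cytosol as its leading predicted location in the deposited table, had 42.5, 68.7 and 68.3 CPM in protoapothecia A, B and C, against 295 and 365 in sexual mycelium 1 and 2, 433 and 391 for vegetative mycelium 1 and 2, and 524 and 584 for vegetative pool 1 and 2. Its 3 protoapothecium values lay below all 6 mycelium values, with a log2 fold change of −2.47 ± 0.25 against sexual mycelium (edgeR adjusted p = 4.13e-05). The manganese enzyme PCON_10166 (scaffold 506, 84092 to 85384, minus strand), with a predicted mitochondrial location, had 7.72, 8.13 and 13.3 CPM in protoapothecia, against 49.6 and 65.4 in sexual mycelium, 84.0 and 88.8 in dark vegetative mycelium and 103 and 124 in the pool. Its protoapothecium values were also the lowest of the 9 (−2.55 ± 0.28 against sexual mycelium, edgeR adjusted p = 6.23e-05).

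Other members of the same family went the opposite way. PCON_09856 (scaffold 482, 7512 to 8632, minus strand), also described as a mitochondrial manganese superoxide dismutase but with an extracellular location as its leading prediction, had 41.3, 61.2 and 41.2 CPM in protoapothecia, against 9.69 and 9.26 in sexual mycelium, 2.83 and 4.13 in dark vegetative mycelium and 1.70 and 2.16 in the pool. Its protoapothecium values were the highest of the 9, and the groups followed the order protoapothecia, sexual mycelium, vegetative mycelium, vegetative pool without overlap. It was called against sexual mycelium (2.33 ± 0.33, edgeR adjusted p = 0.000276) and against vegetative mycelium (3.78, edgeR adjusted p = 1.86e-05). In sexual over vegetative mycelium its log2 fold change was 1.44 (edgeR adjusted p = 0.0117), and that call was lost without sexual mycelium 1 (edgeR adjusted p = 0.0529) or vegetative mycelium 1 (edgeR adjusted p = 0.12). The copper chaperone PCON_11012, of the family that loads copper into the Cu-Zn enzyme in budding yeast, had 59.6, 61.4 and 112 CPM in protoapothecia, against 7.91 and 11.8 in sexual mycelium, 13.1 and 15.5 in dark vegetative mycelium and 20.6 and 33.4 in the pool. It was 2.98 ± 0.40 log2 units higher in protoapothecia than in sexual mycelium (edgeR adjusted p = 0.00021), while PCON_05187 was lower.

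The further Cu-Zn dismutase PCON_08184, predicted to be extracellular, had the highest TPM of all 51 genes in the vegetative pool. It had 632, 601 and 421 CPM in protoapothecia, against 229 and 206 in sexual mycelium, 567 and 629 in dark vegetative mycelium and 1586 and 1694 in the pool. Sexual mycelium was lowest and the pool highest, while the protoapothecium and vegetative mycelium values overlapped. Protoapothecia were higher than sexual mycelium (1.34 ± 0.24, edgeR adjusted p = 0.00118) and lower than the pool (−1.57 ± 0.23, edgeR adjusted p = 0.000245). Sexual mycelium was lower than vegetative mycelium (−1.46 ± 0.26, edgeR adjusted p = 0.00254). Vegetative mycelium was lower than the pool (−1.45 ± 0.26, edgeR adjusted p = 0.0163), a call lost without any 1 of the 4 libraries of these groups, at edgeR adjusted p of 0.0596 to 0.163. Of the 5 genes of the family, 3 were higher and 2 lower in protoapothecia than in sexual mycelium (background 26.7% and 34.5%).

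**Figure D3:**
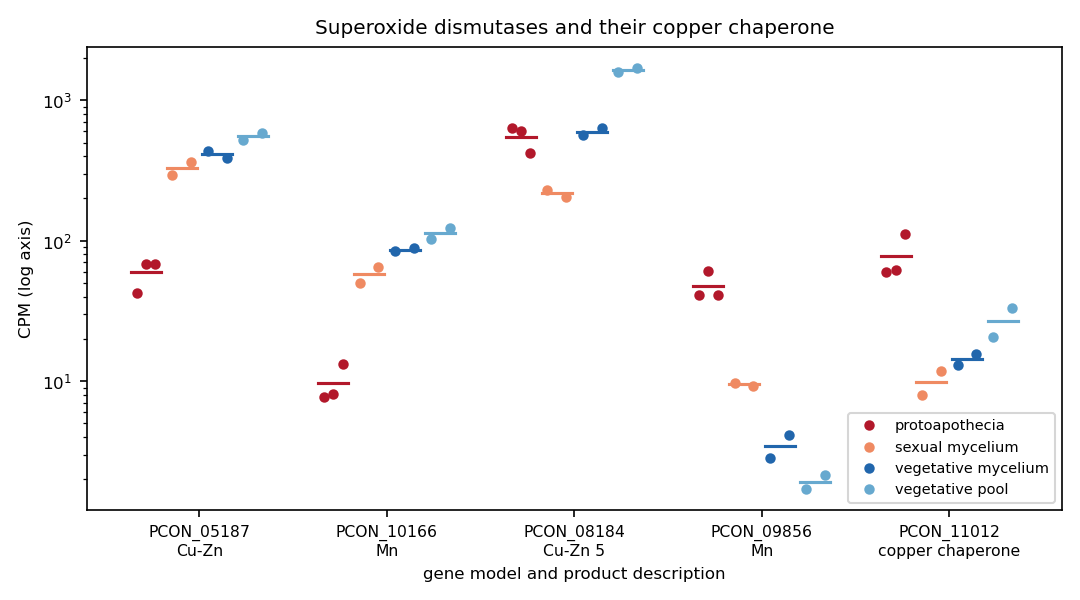
CPM (log axis) of the 4 superoxide dismutases and their copper chaperone in each library (points) with the group mean (horizontal lines). PCON_05187 and PCON_10166 are lowest in protoapothecia, and PCON_09856 and PCON_11012 are highest there.

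All 3 catalases, which split hydrogen peroxide into water and oxygen, were called higher in protoapothecia than in sexual mycelium (background 26.7%), but each of the 3 calls depended on single libraries. Catalase B PCON_01310, with a predicted extracellular location (scaffold 1083, 66474 to 68891, minus strand), had 118, 71.4 and 139 CPM in protoapothecia A, B and C, against 58.0 and 49.2 in sexual mycelium 1 and 2, 85.0 and 53.2 for vegetative mycelium 1 and 2, and 32.9 and 31.7 for vegetative pool 1 and 2. Its log2 fold change against sexual mycelium was 1.03 ± 0.32 (edgeR adjusted p = 0.0192), and the call was lost without sexual mycelium 1 or 2 (edgeR adjusted p = 0.0664 and 0.126). Against the vegetative pool it was 1.76 (edgeR adjusted p = 0.00114), and the protoapothecium and vegetative mycelium values overlapped.

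Catalase-1 PCON_04485 had 22.5, 54.3 and 392 CPM in protoapothecia A, B and C, against 7.67 and 28.8 in sexual mycelium 1 and 2, 1.55 and 2.84 for vegetative mycelium 1 and 2, and 5.67 and 1.83 for vegetative pool 1 and 2. Protoapothecia C was far above A and B, and protoapothecia A lay between the sexual mycelium libraries, so those groups overlapped. The fitted difference from sexual mycelium was 3.10 ± 1.19 (edgeR adjusted p = 0.0459). Without protoapothecia C it was 1.10 (edgeR adjusted p = 0.226), and the call was also lost without protoapothecia B, without either sexual mycelium library and without any 1 vegetative mycelium or pool library (edgeR adjusted p of 0.0537 to 0.224). Against vegetative mycelium the groups did not overlap, and the difference of 6.15 (edgeR adjusted p = 0.00385) was 4.14 without protoapothecia C (edgeR adjusted p = 0.00249). Against the pool it was 5.36 (edgeR adjusted p = 0.00617), 3.37 without protoapothecia C, 6.41 without vegetative pool 1, and lost without vegetative pool 2 (edgeR adjusted p = 0.064).

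Catalase PCON_07431 (scaffold 326, 102455 to 104478, plus strand), with a predicted cytosolic location, had the highest mean TPM of the 3 over the groups and its highest level in dark-grown vegetative mycelium, with 530.3, 794 and 538 CPM in protoapothecia A, B and C, against 332 and 336 in sexual mycelium 1 and 2, 1574 and 1371 for vegetative mycelium 1 and 2, and 452 and 727 for vegetative pool 1 and 2. It was lower in protoapothecia than in vegetative mycelium (−1.25 ± 0.27, edgeR adjusted p = 0.00281) and lower in sexual than in vegetative mycelium (−2.14 ± 0.32, edgeR adjusted p = 0.000988), with no overlap in either. Over sexual mycelium it was higher by 0.89 ± 0.29 (edgeR adjusted p = 0.0221), a call lost without either sexual mycelium library (edgeR adjusted p = 0.103 and 0.101). Protoapothecium and pool values overlapped. Vegetative mycelium was 1.32 above the pool (edgeR adjusted p = 0.0423). That call was lost without any 1 of 7 libraries: protoapothecia A, both sexual, both vegetative and both pool libraries (edgeR adjusted p of 0.0505 to 0.318).

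Both heme peroxidases were lower in protoapothecia than in the vegetative groups. Cytochrome c peroxidase PCON_01441 (scaffold 1094, 37584 to 39015, minus strand), which in budding yeast removes peroxide in mitochondria with electrons from cytochrome c, had 45.8, 61.0 and 49.9 CPM in protoapothecia A, B and C, against 218 and 192 in sexual mycelium 1 and 2, 295 and 321 for vegetative mycelium 1 and 2, and 700.0 and 691 for vegetative pool 1 and 2. The 4 groups did not overlap, with protoapothecia lowest and the pool highest. Protoapothecia were lower than sexual mycelium (−1.98 ± 0.20, edgeR adjusted p = 3.68e-05), vegetative mycelium (−2.56 ± 0.20, edgeR adjusted p = 5.76e-06) and the pool (−3.74 ± 0.21, edgeR adjusted p = 1.39e-06). Vegetative mycelium was lower than the pool (−1.18 ± 0.22, edgeR adjusted p = 0.0203), a call lost without any 1 of the 4 libraries of those groups (edgeR adjusted p of 0.0699 to 0.194).

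PCON_11254, described as the versatile peroxidase VPL2, a lignin-oxidising secreted enzyme in the oyster mushroom Pleurotus, had 2.24, 6.63 and 2.67 CPM in protoapothecia A, B and C, against 4.22 and 3.97 in sexual mycelium 1 and 2, 35.4 and 28.3 for vegetative mycelium 1 and 2, and 31.9 and 41.1 for vegetative pool 1 and 2. Protoapothecium and sexual mycelium values overlapped (−0.19 ± 0.45, edgeR adjusted p = 0.74), with a 95% interval of −1.20 to 0.83. Both were below both vegetative groups. Protoapothecia were −3.14 ± 0.45 against vegetative mycelium (edgeR adjusted p = 0.000208), and sexual mycelium was −2.96 ± 0.50 against it (edgeR adjusted p = 0.002).

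Glutathione peroxidase PCON_01109, the only gene of its class and predicted to be mitochondrial (scaffold 1013, 29579 to 31493, plus strand), reduces peroxides with glutathione or thioredoxin. It had 501, 488 and 514 CPM in protoapothecia A, B and C, against 196 and 172 in sexual mycelium 1 and 2, 404 and 393 for vegetative mycelium 1 and 2, and 514 and 610.2 for vegetative pool 1 and 2. Sexual mycelium stood below all other groups, and protoapothecium and pool values overlapped. The difference was 1.45 ± 0.20 in protoapothecia over sexual mycelium (edgeR adjusted p = 0.000232) and −1.11 ± 0.21 in sexual over vegetative mycelium (edgeR adjusted p = 0.00344). Protoapothecia and vegetative mycelium differed by 0.33 ± 0.19, which was not called (edgeR adjusted p = 0.149, 95% interval −0.10 to 0.76). As with PCON_08184, sexual mycelium was called lower than both protoapothecia and vegetative mycelium.

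Of the 5 peroxiredoxins, peroxidases that work through a reactive cysteine, 2 were called higher and 3 lower in protoapothecia than in sexual mycelium (background 26.7% and 34.5%). Some of these calls depended on single libraries. PCON_05585 (scaffold 217, 122336 to 123622, plus strand), similar to Pmp20, a peroxisomal peroxiredoxin in the yeast Candida boidinii, had 1752, 3588 and 1578 CPM in protoapothecia A, B and C, against 669.9 and 702 in sexual mycelium 1 and 2, 989 and 774 for vegetative mycelium 1 and 2, and 379 and 522 for vegetative pool 1 and 2. Protoapothecia B was the highest, and all 3 protoapothecium libraries were above every mycelium library. The difference was 1.75 ± 0.39 against sexual mycelium (edgeR adjusted p = 0.00361), 1.39 ± 0.38 against vegetative mycelium (edgeR adjusted p = 0.00934) and 2.36 ± 0.40 against the pool (edgeR adjusted p = 0.000617). The call against vegetative mycelium was lost without vegetative mycelium 2 (1.22, edgeR adjusted p = 0.0742). Peroxiredoxin-5 PCON_11448, predicted to be mitochondrial, was at 119, 222 and 111 CPM in protoapothecia and 55.8 and 73.7 CPM in sexual mycelium (1.21 ± 0.32, edgeR adjusted p = 0.00912; lost without sexual mycelium 1, edgeR adjusted p = 0.0832).

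The 2 genes similar to Prx1, a mitochondrial 1-cysteine peroxiredoxin in budding yeast, had lower levels in protoapothecia against both sexual mycelium and the pool, and were not called against vegetative mycelium. PCON_12131 (scaffold 674, 28240 to 29273, minus strand) had 43.0, 23.5 and 17.2 CPM in protoapothecia A, B and C, against 109 and 196 in sexual mycelium 1 and 2, 52.9 and 45.7 for vegetative mycelium 1 and 2, and 109 and 122 for vegetative pool 1 and 2. Its protoapothecium values were the lowest of the 9 and its sexual mycelium and pool values overlapped. It was −2.45 ± 0.39 against sexual mycelium (edgeR adjusted p = 0.000515) and −0.82 ± 0.38 against vegetative mycelium (edgeR adjusted p = 0.083). In sexual over vegetative mycelium it was 1.63 ± 0.43 (edgeR adjusted p = 0.0183), and that call was lost without sexual mycelium 2, vegetative mycelium 1 or vegetative mycelium 2 (edgeR adjusted p = 0.147, 0.0812 and 0.115). The other, PCON_11955, had 9.66, 6.63 and 7.22 CPM in protoapothecia, against 15.1 and 23.6 in sexual mycelium, 11.3 and 11.4 in dark vegetative mycelium and 22.2 and 22.4 in the pool. Its protoapothecium values were again the lowest. It was −1.29 ± 0.31 against sexual mycelium (edgeR adjusted p = 0.00577), lost without sexual mycelium 2 (edgeR adjusted p = 0.0794), and −0.52 ± 0.32 against vegetative mycelium (edgeR adjusted p = 0.166). A further gene similar to Pmp20, PCON_08070, had 10.2, 11.3 and 20.8 CPM in protoapothecia and 20.2 and 38.1 CPM in sexual mycelium. These overlapped, and the call (−1.04 ± 0.39, edgeR adjusted p = 0.0415) was lost under RLE scaling, in DESeq2 and without any 1 library other than protoapothecia C or sexual mycelium 1.

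Thioredoxin reductase PCON_09174 (scaffold 425, 108584 to 110618, minus strand), which passes electrons from NADPH to thioredoxin, was called in none of the 6 comparisons. It had 103, 101 and 136 CPM in protoapothecia A, B and C, against 99.8 and 147 in sexual mycelium 1 and 2, 98.0 and 123 for vegetative mycelium 1 and 2, and 161 and 156 for vegetative pool 1 and 2. The difference from sexual mycelium was −0.12 ± 0.24 with a 95% interval of −0.67 to 0.42 (edgeR adjusted p = 0.678), and that from vegetative mycelium was 0.04 ± 0.24 with an interval of −0.51 to 0.58 (edgeR adjusted p = 0.9).

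Beside this reductase, 3 gene models described as thioredoxin-1 had unlike patterns. PCON_06978 and PCON_06979 are neighbours on scaffold 295, at 14123 to 15080 on the plus strand and 15618 to 16576 on the minus strand, with 537 bp and no other gene model between them. PCON_06978 had 0.747, 1.07 and 19.1 CPM in protoapothecia A, B and C, against 95.5 and 247 in sexual mycelium 1 and 2, 0 and 0.258 for vegetative mycelium 1 and 2, and 0.236 and 0.196 for vegetative pool 1 and 2. Both sexual mycelium libraries exceeded all others, and the vegetative mycelium and pool libraries held 4 and 8 counts in all. Protoapothecia were lower than sexual mycelium (−4.53 ± 1.13, edgeR adjusted p = 0.00664; −7.64 without protoapothecia C; lost without sexual mycelium 2, edgeR adjusted p = 0.0526).

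In sexual over vegetative mycelium the fitted difference of PCON_06978 was 10.27 ± 1.91 (edgeR adjusted p = 0.00317). Its size depends on the prior count, since it rests on 8575 counts in sexual and 4 counts in vegetative mycelium, and it was 9.43 without sexual mycelium 2, 9.32 without vegetative mycelium 1 and 14.59 without vegetative mycelium 2. Protoapothecia were also called above vegetative mycelium (5.74, edgeR adjusted p = 0.0163). That call was lost without protoapothecia C (2.62, edgeR adjusted p = 0.0505) and without vegetative mycelium 1 or 2 (4.80 and 10.05, edgeR adjusted p = 0.104 and 0.0564).

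The neighbour PCON_06979 was highest in the vegetative groups, with 12.5, 17.1 and 206 CPM in protoapothecia A, B and C, against 191 and 239 in sexual mycelium 1 and 2, 753 and 646 for vegetative mycelium 1 and 2, and 654 and 817 for vegetative pool 1 and 2. Protoapothecia C lay within the sexual mycelium values, while A and B were over 10 times lower than C. Against sexual mycelium the difference of −1.44 ± 0.95 was not called (edgeR adjusted p = 0.213). Protoapothecia were called lower than vegetative mycelium (−3.14 ± 0.98, edgeR adjusted p = 0.017), at −5.56 without protoapothecia C and lost without protoapothecia B or vegetative mycelium 1 (edgeR adjusted p = 0.0561 and 0.0616). Sexual and vegetative mycelium did not overlap, but the difference of −1.70 ± 1.08 was not called (edgeR adjusted p = 0.29). The third, PCON_03535 (scaffold 1474, 11696 to 12765, minus strand), had 207, 178 and 221 CPM in protoapothecia, against 169.5 and 185 in sexual mycelium, 145 and 155 in dark vegetative mycelium and 224 and 237 in the pool and was called in no comparison. All 9 libraries lay between 145 and 237 CPM.

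**Figure D4:**
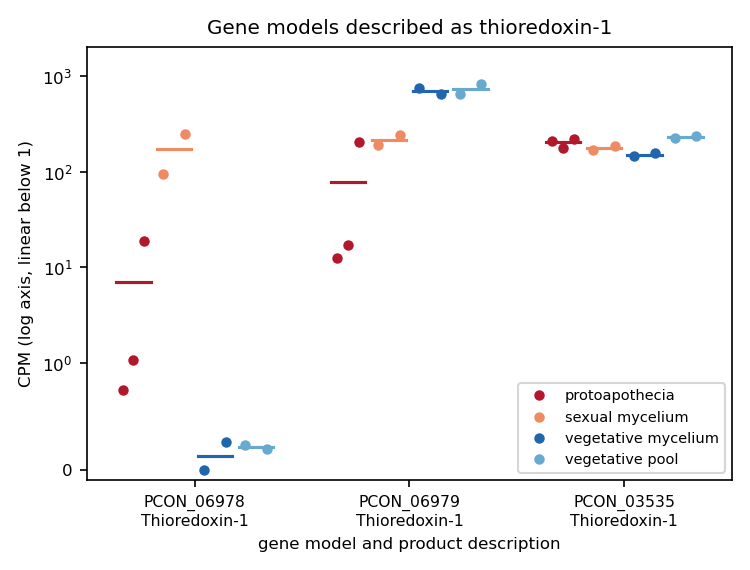
CPM of the 3 gene models described as thioredoxin-1 in each library (points) with the group mean (horizontal lines), on an axis that is logarithmic above 1 and linear below. PCON_06978 is high in sexual mycelium and near 0 in the vegetative groups, PCON_06979 is highest in the vegetative groups, and PCON_03535 stays between 145 and 237 CPM.

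Among the other thioredoxin-domain proteins, PCON_11791 (scaffold 634, 220185 to 221454, plus strand), described as thioredoxin-like protein 1, whose human namesake binds the proteasome, had 36.4, 38.3 and 33.5 CPM in protoapothecia A, B and C, against 116 and 169 in sexual mycelium 1 and 2, 116 and 115 for vegetative mycelium 1 and 2, and 161 and 176 for vegetative pool 1 and 2. All 3 protoapothecium libraries were below all mycelium libraries (−1.98 ± 0.21 against sexual mycelium, edgeR adjusted p = 5.15e-05). PCON_04274 (scaffold 1583, 2707 to 3942, minus strand), a thioredoxin-like protein, had 108, 144 and 99.7 CPM in protoapothecia A, B and C, against 33.7 and 29.8 in sexual mycelium 1 and 2, 45.2 and 47.0 for vegetative mycelium 1 and 2, and 33.7 and 49.3 for vegetative pool 1 and 2. It was highest in protoapothecia, at 1.88 ± 0.26 over sexual mycelium (edgeR adjusted p = 0.000256). Of the 10 thioredoxin genes, 2 were higher and 3 lower in protoapothecia than in sexual mycelium, 4 higher and 2 lower than in vegetative mycelium, and 4 higher and 4 lower than in the pool, beside backgrounds of 26.7% and 34.5%, 36.4% and 32.8%, and 34.8% and 34.4%.

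Of the 6 glutaredoxins, which reduce protein disulfides with glutathione, 1 was higher and 1 lower in protoapothecia than in sexual mycelium (background 26.7% and 34.5%). PCON_04398 (scaffold 1604, 16889 to 18160, plus strand) had 64.0, 35.5 and 125 CPM in protoapothecia A, B and C, against 636 and 416 in sexual mycelium 1 and 2, 91.4 and 284 for vegetative mycelium 1 and 2, and 177 and 252 for vegetative pool 1 and 2. Both sexual mycelium libraries exceeded all others, and the vegetative mycelium libraries differed from each other by about 3 times. Protoapothecia were −2.80 ± 0.57 against sexual mycelium (edgeR adjusted p = 0.00221), and sexual over vegetative mycelium was not called (1.49 ± 0.63, edgeR adjusted p = 0.111). PCON_06114 (scaffold 234, 45611 to 46236, minus strand), similar to the yeast protein YDR286C, had 20.1, 30.2 and 14.1 CPM in protoapothecia A, B and C, against 3.41 and 6.52 in sexual mycelium 1 and 2, 1.95 and 2.71 for vegetative mycelium 1 and 2, and 2.74 and 4.12 for vegetative pool 1 and 2. Its protoapothecium values were above all others (2.10 ± 0.49 against sexual mycelium, edgeR adjusted p = 0.00457).

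The 3 monothiol glutaredoxins were called in no comparison. PCON_08625, similar to Grx5, which serves iron-sulfur cluster assembly in yeast mitochondria, had 44.2, 32.3 and 33.5 CPM in protoapothecia, against 32.9 and 32.1 in sexual mycelium, 37.3 and 38.6 in dark vegetative mycelium and 41.2 and 44.7 in the pool. PCON_14049, similar to Grx4, which takes part in iron sensing in yeast, had 66.4, 82.6 and 58.9 CPM in protoapothecia, against 64.5 and 73.2 in sexual mycelium, 73.1 and 73.1 in dark vegetative mycelium and 68.0 and 84.6 in the pool. Against sexual mycelium their 95% intervals were −0.32 to 0.68 and −0.49 to 0.50 on the log2 scale. The third, PCON_02709, stayed between 3.29 and 9.22 CPM. By contrast PCON_09798, described as glutaredoxin-2, had 1.05, 3.21 and 6.08 CPM in protoapothecia, against 5.18 and 11.5 in sexual mycelium, 16.0 and 32.7 in dark vegetative mycelium and 636 and 90.0 in the pool. The pool libraries were the highest and differed by about 7 times, with protoapothecia A and B lowest (−6.70 against the pool, edgeR adjusted p = 0.000232; −7.68 without protoapothecia C, −4.70 without vegetative pool 1 and −7.51 without vegetative pool 2).

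The glutathione S-transferases, which attach glutathione to reactive compounds, held the 2 largest positive log2 fold changes of the members against sexual mycelium. PCON_01201 (scaffold 1060, 38142 to 39554, plus strand), similar to microsomal glutathione S-transferase 3, a membrane enzyme that in mammals also reduces lipid peroxides, had 1076, 1155 and 1678 CPM in protoapothecia A, B and C, against 38.1 and 62.7 in sexual mycelium 1 and 2, 39.7 and 33.2 for vegetative mycelium 1 and 2, and 41.9 and 51.9 for vegetative pool 1 and 2. Every protoapothecium library was more than 10 times above every mycelium library. The difference was 4.69 ± 0.36 against sexual mycelium (edgeR adjusted p = 9.15e-06), 5.16 ± 0.37 against vegetative mycelium (edgeR adjusted p = 3.79e-06) and 4.80 ± 0.36 against the pool (edgeR adjusted p = 5.24e-06). The kappa-type transferase PCON_13035 (scaffold 799, 54042 to 55284, plus strand), of a family found in mitochondria and peroxisomes in mammals, had 642, 940.2 and 658 CPM in protoapothecia A, B and C, against 50.7 and 66.5 in sexual mycelium 1 and 2, 83.5 and 81.1 for vegetative mycelium 1 and 2, and 59.7 and 71.7 for vegetative pool 1 and 2. It was 3.67 ± 0.28 higher in protoapothecia than in sexual mycelium (edgeR adjusted p = 9.15e-06), again with no overlap.

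Of the other transferases, PCON_09986, PCON_12693 and PCON_07971 were lower in protoapothecia than in sexual mycelium. PCON_09986 (scaffold 491, 56903 to 58399, minus strand), described as glutathione S-transferase 1, had 0.398, 0.428 and 0.940 CPM in protoapothecia A, B and C, against 12.5 and 14.2 in sexual mycelium 1 and 2, 11.9 and 12.6 for vegetative mycelium 1 and 2, and 11.1 and 14.9 for vegetative pool 1 and 2. It was −4.41 ± 0.45 against sexual mycelium (edgeR adjusted p = 3.86e-05), and all mycelium groups overlapped. PCON_12693, described as glutathione S-transferase U1, was at 22.8, 25.7 and 37.0 CPM in protoapothecia and 78.2 and 66.7 CPM in sexual mycelium (−1.34 ± 0.24, edgeR adjusted p = 0.00115). PCON_04588 had 2.14, 2.35 and 1.83 CPM in protoapothecia, against 1.10 and 1.72 in sexual mycelium, 1.01 and 1.55 in dark vegetative mycelium and 7.84 and 34.1 in the pool, with the pool libraries highest (−4.02 ± 0.72 in vegetative mycelium over the pool, edgeR adjusted p = 0.0169; −4.73 without vegetative pool 1; lost without vegetative mycelium 1, vegetative mycelium 2 or vegetative pool 2, edgeR adjusted p of 0.0541 to 0.155). The omega-like PCON_06974, which overlaps another gene model, PCON_06973, and is therefore uncertain without strand, had 76.9, 57.3 and 136 CPM in protoapothecia, against 66.2 and 57.3 in sexual mycelium, 16.4 and 13.9 in dark vegetative mycelium and 20.1 and 20.1 in the pool. It was higher in sexual than in vegetative mycelium (2.03 ± 0.38, edgeR adjusted p = 0.00347). The same limit holds for PCON_07971, which overlaps PCON_07970 and stayed between 0.642 and 5.82 CPM. Its call (−1.75 ± 0.48 against sexual mycelium, edgeR adjusted p = 0.0106) was lost without sexual mycelium 2 (edgeR adjusted p = 0.0968).

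Of the 9 other glutathione enzymes, 3 were higher and 3 lower in protoapothecia than in sexual mycelium (background 26.7% and 34.5%). Glutathione synthetase PCON_02399 (scaffold 1221, 184876 to 186446, plus strand), which adds glycine in the last step of glutathione synthesis, had 73.0, 115 and 102 CPM in protoapothecia A, B and C, against 20.6 and 26.1 in sexual mycelium 1 and 2, 21.2 and 18.6 for vegetative mycelium 1 and 2, and 27.0 and 28.8 for vegetative pool 1 and 2. All 3 protoapothecium values lay above all mycelium values (2.05 ± 0.27 against sexual mycelium, edgeR adjusted p = 0.000167). Glutathione reductase PCON_14110 (scaffold 961, 75733 to 77916, minus strand), which returns oxidised glutathione to its reduced form with NADPH, had 138, 90.5 and 170.1 CPM in protoapothecia A, B and C, against 199 and 226 in sexual mycelium 1 and 2, 257 and 214 for vegetative mycelium 1 and 2, and 260.0 and 301 for vegetative pool 1 and 2. Its protoapothecium values were the lowest, but the difference from sexual mycelium of −0.67 ± 0.27 missed the threshold (edgeR adjusted p = 0.0508). It was called against vegetative mycelium (−0.82 ± 0.27, edgeR adjusted p = 0.0202), a call lost without vegetative mycelium 1 (edgeR adjusted p = 0.135).

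PCON_11059, similar to glutathione gamma-glutamylcysteinyltransferase, the phytochelatin synthase that joins glutathione units into metal-binding peptides in plants, had 116, 96.9 and 58.8 CPM in protoapothecia, against 31.0 and 46.6 in sexual mycelium, 19.3 and 16.9 in dark vegetative mycelium and 16.8 and 17.0 in the pool, with no overlap between protoapothecia, sexual mycelium and the 2 vegetative groups. Protoapothecia were 1.22 ± 0.32 above sexual mycelium (edgeR adjusted p = 0.00879; lost without sexual mycelium 1, edgeR adjusted p = 0.0859). Sexual over vegetative mycelium was 1.10 ± 0.34 (edgeR adjusted p = 0.0378), and that call was lost under RLE scaling and without any 1 of sexual mycelium 2, the vegetative mycelium libraries or the pool libraries (edgeR adjusted p of 0.056 to 0.242).

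In the glutathione-dependent removal of formaldehyde and methylglyoxal, 3 genes were lower in protoapothecia than in every mycelium group. S-(hydroxymethyl)glutathione dehydrogenase PCON_14184 (scaffold 984, 46930 to 51344, minus strand), which oxidises the formaldehyde adduct of glutathione, had 99.7, 190.1 and 218 CPM in protoapothecia A, B and C, against 355 and 466 in sexual mycelium 1 and 2, 565 and 531 for vegetative mycelium 1 and 2, and 482 and 567 for vegetative pool 1 and 2. S-formylglutathione hydrolase PCON_03459, which releases formate and glutathione in the next step, had 8.37, 8.98 and 35.2 CPM in protoapothecia, against 52.9 and 75.9 in sexual mycelium, 152 and 114 in dark vegetative mycelium and 160.3 and 200.4 in the pool. Hydroxyacylglutathione hydrolase PCON_03652 (scaffold 149, 44982 to 46878, minus strand), the glyoxalase II that ends methylglyoxal removal, had 34.2, 44.9 and 41.1 CPM in protoapothecia A, B and C, against 91.6 and 101 in sexual mycelium 1 and 2, 153 and 143 for vegetative mycelium 1 and 2, and 125 and 142 for vegetative pool 1 and 2. In each the protoapothecium libraries were below all mycelium libraries, although protoapothecia C was about 4 times A and B for PCON_03459.

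Against sexual mycelium the differences were −1.28 ± 0.31 for PCON_14184 (edgeR adjusted p = 0.0062; lost without sexual mycelium 2, edgeR adjusted p = 0.0569) and −1.27 ± 0.20 for PCON_03652 (edgeR adjusted p = 0.000454). For PCON_03459 the difference was −1.85 ± 0.55 (edgeR adjusted p = 0.0158), −2.87 without protoapothecia C, and lost without protoapothecia B or sexual mycelium 2 (edgeR adjusted p = 0.054 and 0.0985). The lactoylglutathione lyase PCON_08302, a glyoxalase I that precedes PCON_03652 in its pathway, had overlapping groups and was not called (−0.07 ± 0.50, edgeR adjusted p = 0.916, 95% interval −1.18 to 1.05). The other glyoxalase I gene, PCON_01785, had 2.39, 1.71 and 0.940 CPM in protoapothecia, against 0.576 and 0.562 in sexual mycelium, 1.75 and 1.29 in dark vegetative mycelium and 1.46 and 2.75 in the pool. Its call against sexual mycelium (1.55 ± 0.59, edgeR adjusted p = 0.0456) was lost without any 1 of protoapothecia A or B, the sexual mycelium libraries or the vegetative mycelium libraries (edgeR adjusted p of 0.059 to 0.179). A second S-(hydroxymethyl)glutathione dehydrogenase, PCON_06448, overlaps PCON_06449 and stayed between 0.196 and 6.71 CPM. Unlike PCON_14184, it was called higher in protoapothecia than in the pool (edgeR adjusted p = 0.0163), a call that depended on single pool libraries.

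Per length, the make-up of the redox transcripts differed between the groups. The protoapothecium RNA was amplified and the mycelium RNA was not labelled so. Whether division by the full spliced length suits both alike was not tested. Glutathione S-transferases made up 18.8% to 26.4% of the summed TPM of the members in protoapothecia, against 3.46% to 3.72% in sexual mycelium, 2.53% to 2.67% in vegetative mycelium and 2.41% to 2.73% in the vegetative pool. Peroxiredoxins made up 28.0% to 49.9% in protoapothecia, 21.0% to 22.6% in sexual mycelium, 17.0% to 20.0% in vegetative mycelium and 9.84% to 11.3% in the pool. Superoxide dismutases with their chaperone took 7.17% to 9.51% in protoapothecia, 14.5% to 15.3% in sexual mycelium, 17.6% to 18.3% in vegetative mycelium and 27.9% to 28.5% in the pool. In these 3 classes every mycelium library lay outside the protoapothecium range, and thioredoxins were lower in each protoapothecium library (7.73% to 14.6%) than in any mycelium library (21.7% to 25.9%).

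A few genes carried each of these shares. In protoapothecia the leading members were the peroxiredoxin PCON_05585 at 3092 ± 1539.5 TPM and the transferase PCON_01201 at 1071 ± 261 TPM (mean ± SD, n = 3). In sexual mycelium they were PCON_05585 at 1464 ± 29.3 and the glutaredoxin PCON_04398 at 1239 ± 382 TPM, and in vegetative mycelium PCON_05585 at 1625 ± 277 and the thioredoxin PCON_06979 at 1532 ± 163 TPM (n = 2 each). In the vegetative pool they were the dismutase PCON_08184 at 1823 ± 9.03 and PCON_06979 at 1671 ± 194 TPM (n = 2). TPM and CPM scale the groups differently. Glutathione peroxidase PCON_01109 averaged 400.4 ± 5.87 TPM in protoapothecia and 235 ± 24.2 TPM in sexual mycelium, beside 501 ± 12.9 and 184 ± 16.6 CPM, so TPM is read here within libraries and fold changes come from the counts.

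**Figure D5:**
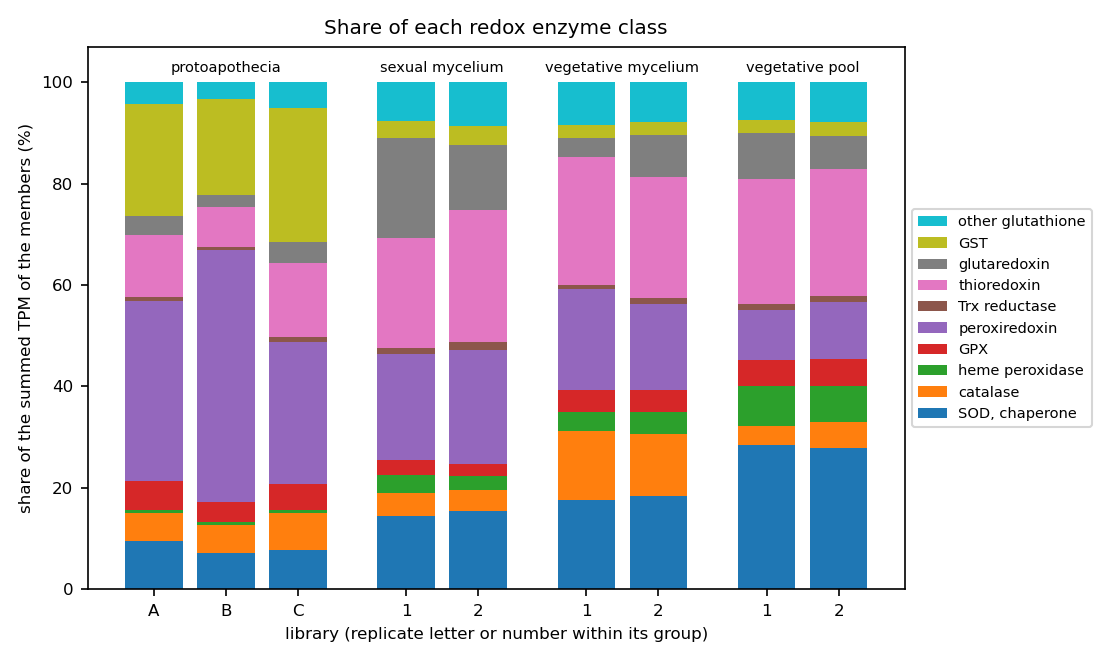
Share of the summed TPM of the redox enzymes (y axis, percent) taken by each class in each library (bars). Glutathione S-transferases take 18.8% to 26.4% in the protoapothecium libraries and 2.41% to 3.72% in the mycelium libraries.

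Between mycelium groups fewer redox enzymes differed. In sexual over vegetative mycelium 6 of 50, or 12.0%, were higher (background 20.6%) and 4, or 8%, lower (background 9.00%), and in sexual mycelium over the pool 5, or 10%, were higher (background 19.8%) and 10, or 20.0%, lower (background 9.48%). Higher calls were thus below the background share in both, and lower calls against the pool were above it. These differences were not tested. In vegetative mycelium over the pool 1 was higher (background 1.79%) and 3 lower (background 3.41%). The 6 that were higher in sexual than in vegetative mycelium were PCON_06978, PCON_06974, PCON_09856, PCON_12131, PCON_11059 and PCON_06448, and the 4 lower ones were PCON_07431, PCON_11254, PCON_08184 and PCON_01109. The call of PCON_06448 (2.95, edgeR adjusted p = 0.0375) was lost without any 1 of protoapothecia A, sexual mycelium 2, the vegetative mycelium libraries or vegetative pool 2 (edgeR adjusted p of 0.0503 to 0.528) and was 3.75 without sexual mycelium 1. Both vegetative groups contain dark-grown cultures, but the pool also contains light-grown and submerged ones. Of the 50 genes, 25 had their highest mean CPM in the vegetative pool, 15 in protoapothecia, 7 in sexual mycelium and 3 in vegetative mycelium. The same count over all genes was not made, so this order is not read as a trait of redox enzymes.

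By the leading predicted location in the deposited table, 5 members were extracellular. Of these, PCON_08184, PCON_09856, PCON_01310 and PCON_04274 were higher in protoapothecia than in sexual mycelium, and PCON_11254 was not called (background 26.7% higher). Against vegetative mycelium 2 of the 5 were higher and 1 lower (background 36.4% and 32.8%), and against the pool 3 were higher and 2 lower (background 34.8% and 34.4%). Of the 19 tested members predicted to be mitochondrial, 5 (26.3%) were higher and 6 (31.6%) lower than in sexual mycelium, near the background of 26.7% and 34.5%. Of 18 predicted to be cytosolic, 7 (38.9%) were higher and 5 (27.8%) lower, and the difference from that background was not tested. Locations are predictions from sequence.

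Of 7 genes listed by their descriptions for the supply of NADPH, the reductant of this network, 5 were lower and 2 higher in protoapothecia than in each mycelium group (background 34.5% and 26.7% against sexual mycelium). Glucose-6-phosphate dehydrogenase PCON_09179, which opens the pentose phosphate pathway, had 12.4, 14.8 and 16.2 CPM in protoapothecia, against 47.1 and 64.2 in sexual mycelium, 88.1 and 86.3 in dark vegetative mycelium and 78.1 and 73.2 in the pool (−1.95 ± 0.22 against sexual mycelium, edgeR adjusted p = 7.73e-05). The 6-phosphogluconate dehydrogenase PCON_11964, the next NADPH-forming step, had 134, 200.4 and 168 CPM in protoapothecia, against 768 and 836 in sexual mycelium, 1152 and 1185 in dark vegetative mycelium and 1269 and 1358 in the pool (−2.26 ± 0.23, edgeR adjusted p = 3.42e-05). For both genes the protoapothecium values were the lowest of the 9. Summed over the 7 genes, the level was 643 to 727 CPM in protoapothecia, 1721 to 1785 in sexual mycelium, 2001 to 2026 in vegetative mycelium and 2314 to 2433 in the pool. A second 6-phosphogluconate dehydrogenase, PCON_07351, went the other way, with 162, 85.1 and 176 CPM in protoapothecia, against 14.1 and 30.2 in sexual mycelium, 19.6 and 18.6 in dark vegetative mycelium and 18.5 and 19.0 in the pool (2.67 ± 0.42, edgeR adjusted p = 0.000478; 3.32 without sexual mycelium 2). The other gene that was higher, PCON_09068, is described as an NAD-dependent malic enzyme, a type that forms NADH and is not a source of NADPH. Without it 5 of 6 genes were lower and 1 higher, and the sum was 641 to 724 CPM in protoapothecia and 1719.5 to 1784 in sexual mycelium.

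Among 13 genes of glutathione precursors and breakdown, 3 were higher and 5 lower in protoapothecia than in sexual mycelium, near the background of 26.7% and 34.5%. Against vegetative mycelium (background 36.4% and 32.8%) and likewise against the pool (background 34.8% and 34.4%), 4 were higher and 5 lower. Cystathionine gamma-synthase PCON_13675, of the route between cysteine and methionine, had 457, 473 and 429 CPM in protoapothecia, against 58.0 and 48.7 in sexual mycelium, 0.876 and 1.81 in dark vegetative mycelium and 3.69 and 3.73 in the pool, an order of groups without overlap (3.09 ± 0.28 against sexual mycelium, edgeR adjusted p = 2.13e-05). Gamma-glutamyltranspeptidase PCON_11893, which starts glutathione breakdown, had 3.78, 5.35 and 4.15 CPM in protoapothecia, against 53.3 and 66.1 in sexual mycelium, 119 and 94.0 in dark vegetative mycelium and 206 and 113 in the pool (−3.79 ± 0.31, edgeR adjusted p = 1.27e-05). Glutamate-cysteine ligase PCON_07765, the rate-limiting step of glutathione synthesis, was at 136, 79.8 and 100.5 CPM in protoapothecia and 129 and 145 CPM in sexual mycelium. It was not called between these groups (−0.38 ± 0.25, edgeR adjusted p = 0.21). Its mean was 48.7 CPM in dark vegetative mycelium and 61.3 CPM in the pool. It was called higher in protoapothecia than in vegetative mycelium (edgeR adjusted p = 0.0038). The regulatory subunit of the ligase, PCON_04670, was lower in protoapothecia than in sexual mycelium (−1.24 ± 0.24, edgeR adjusted p = 0.00179).

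In the repair of oxidised protein, 2 of 5 genes were higher and 1 lower in protoapothecia than in sexual mycelium (background 26.7% and 34.5%). The methionine sulfoxide reductases, which reverse methionine oxidation, diverged. PCON_02612, of the B type, had 303, 184 and 555 CPM in protoapothecia, against 113 and 95.1 in sexual mycelium, 20.3 and 33.8 in dark vegetative mycelium and 33.7 and 65.6 in the pool (1.74 ± 0.49 in protoapothecia over sexual mycelium, edgeR adjusted p = 0.0119; lost without sexual mycelium 1 or 2, edgeR adjusted p = 0.0585 and 0.0865). PCON_09840 had 40.9, 29.7 and 52.0 CPM in protoapothecia, against 167 and 115 in sexual mycelium, 59.0 and 82.7 in dark vegetative mycelium and 97.2 and 171 in the pool and was lower (−1.78 ± 0.33, edgeR adjusted p = 0.00136). Sulfiredoxin PCON_08469, which reactivates over-oxidised peroxiredoxins, was the other gene that was higher, at 27.7, 27.4 and 27.8 CPM in protoapothecia and 16.4 and 13.6 CPM in sexual mycelium (0.88 ± 0.27, edgeR adjusted p = 0.0193; lost without sexual mycelium 1 or 2, edgeR adjusted p = 0.0588 and 0.128).

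Oxidases that make superoxide or peroxide, together with alternative oxidase, made up a list of 23 genes. Of these, 9 were higher and 7 lower in protoapothecia than in sexual mycelium (background 26.7% and 34.5%), 7 higher and 6 lower than in vegetative mycelium (background 36.4% and 32.8%), and 7 higher and 9 lower than in the pool (background 34.8% and 34.4%). Polyamine oxidase PCON_12299, which yields peroxide as it breaks down polyamines, had 6828, 6766 and 4592 CPM in protoapothecia, against 246 and 219 in sexual mycelium, 44.1 and 91.2 in dark vegetative mycelium and 9.35 and 20.0 in the pool. The protoapothecium libraries exceeded all others by more than 10 times (4.70 ± 0.50 against sexual mycelium, edgeR adjusted p = 4.97e-05). The 2 genes described as the heavy chain A of a superoxide-generating NADPH oxidase differed in pattern. PCON_03126 had 116, 61.0 and 151 CPM in protoapothecia, against 124 and 118 in sexual mycelium, 107 and 110.0 in dark vegetative mycelium and 128 and 126 in the pool and was not called between protoapothecia and sexual mycelium (−0.14 ± 0.32, edgeR adjusted p = 0.723). PCON_03267 had 2.79, 0.856 and 3.16 CPM in protoapothecia, against 10.3 and 6.26 in sexual mycelium, 152 and 131 in dark vegetative mycelium and 61.6 and 79.3 in the pool. It was lowest in protoapothecia (−1.73 ± 0.39 against sexual mycelium, edgeR adjusted p = 0.00425) and highest in vegetative mycelium. Copper amine oxidase PCON_06028, which releases peroxide as it deaminates amines, had 226, 245 and 247 CPM in protoapothecia, against 51.3 and 34.9 in sexual mycelium, 32.4 and 29.9 in dark vegetative mycelium and 47.3 and 40.6 in the pool (2.47 ± 0.24 in protoapothecia over sexual mycelium, edgeR adjusted p = 2.86e-05). Vanillyl-alcohol oxidase PCON_02475 was low in both sexual-stage groups, with 1.79, 2.57 and 0.791 CPM in protoapothecia, against 1.25 and 1.16 in sexual mycelium, 47.4 and 63.3 in dark vegetative mycelium and 73.3 and 135 in the pool (−5.52 ± 0.54 in sexual over vegetative mycelium, edgeR adjusted p = 0.000125). Of 4 genes listed by descriptions that name oxidative stress or a regulator of its response, 1 was higher in protoapothecia than in sexual mycelium and 1 than in the pool, with 0 lower in both. Against vegetative mycelium 2 were higher and 1 lower. The 2 higher were PCON_07231 and the AP-1-like PCON_04381 (edgeR adjusted p = 0.0113 and 0.0475). Their calls were lost under 3 and 12 of 15 alternative settings of the analysis. The gene called against sexual mycelium was PCON_07231, similar to the human oxidative stress-induced growth inhibitor 1. Its description names oxidative stress and does not name a regulator of the response. It was at 52.4, 84.7 and 72.4 CPM in protoapothecia and 23.0 and 31.6 CPM in sexual mycelium (1.35 ± 0.27, edgeR adjusted p = 0.00214). Of the AP-1-like transcription factors, whose yeast relative Yap1 switches on peroxide defence, PCON_04381 was at 131, 83.6 and 134 CPM in protoapothecia and 119 and 102 CPM in sexual mycelium, and PCON_09655 was at 259, 247 and 318 CPM in protoapothecia and 234 and 194 CPM in sexual mycelium. Neither was called in that comparison.

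As a check of the labelled tissue, genes with descriptions known from fungal fruiting bodies and from asexual spores were listed, by description only. Of 19 lectins and tyrosinases, 8 were higher and 2 lower in protoapothecia than in sexual mycelium (background 26.7% and 34.5%), 7 higher and 4 lower than in vegetative mycelium (background 36.4% and 32.8%), and 9 higher and 5 lower than in the pool (background 34.8% and 34.4%). Their summed level was 16292 to 23977 CPM in protoapothecia, 5812 to 7367 in sexual mycelium, 2273 to 2386 in vegetative mycelium and 2230.2 to 2329 in the pool. The fucose-specific lectin PCON_04233 had 14783, 16655 and 10007 CPM in protoapothecia and 4837 and 3841 CPM in sexual mycelium. The lectin PCON_12683 had 6973, 2724 and 4271 CPM in protoapothecia and 354 and 252 CPM in sexual mycelium. In vegetative mycelium and the pool, PCON_04233 averaged 9.51 and 238 CPM, and PCON_12683 averaged 1.48 and 19.9 CPM. These 2 lectins made up most of the summed level in each protoapothecium library, so the sum says little about the rest of the list. Of 4 genes described as conidiation-specific proteins, 0 were higher and 3 lower in protoapothecia than in sexual mycelium, while 2 were higher and 1 lower than in vegetative mycelium and likewise than in the pool. The 3 that were lower included PCON_11571, with 3 counts in all 3 protoapothecium libraries together against 742 in sexual mycelium, and PCON_11576 (−3.35, edgeR adjusted p = 0.00589; −4.17 without sexual mycelium 1, and lost without sexual mycelium 2 at −1.25, edgeR adjusted p = 0.223). The summed level of the 4 was 1.71 to 94.9 CPM in protoapothecia, 18.5 to 63.7 in sexual mycelium, 552 to 753 in vegetative mycelium and 78.1 to 83.5 in the pool.

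The top of that protoapothecium range came from 1 library and 1 gene. PCON_08706, described as conidiation-specific protein 10, had 1.69, 0.642 and 91.8 CPM in protoapothecia A, B and C. Protoapothecia C was also the high library for the redox enzymes PCON_04485, PCON_06978, PCON_06979 and PCON_03459 and for the malic enzyme PCON_09068 (2.24, 2.14 and 64.0 CPM). The call of PCON_09068 against sexual mycelium (4.14, edgeR adjusted p = 0.0348) was lost without protoapothecia C (0.78, edgeR adjusted p = 0.265), without either sexual mycelium library and without either pool library (edgeR adjusted p of 0.0574 to 0.162). The rest of the conidiation-specific list, PCON_11571, PCON_11572 and PCON_11576, averaged 0.0494, 0.0660 and 1.69 CPM in protoapothecia. Whether genes so described mark asexual spores in this fungus, and what set protoapothecia C apart, was not tested.

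The authors' deposited table gives its own consensus call for each gene and comparison. For protoapothecia against sexual mycelium, that table marked 9 redox enzymes as higher and 14 as lower, and all 23 had the same direction and an edgeR call here. The edgeR calls were more, at 33. Among those without an authors' mark were the catalases PCON_01310, PCON_04485 and PCON_07431, glutathione peroxidase PCON_01109 and the dismutase PCON_08184. Against vegetative mycelium the authors' deposited table marked 13 as higher and 13 as lower, and against the pool 14 as higher and 18 as lower. All of them were also called here in the same direction, among 29 and 38 edgeR calls. In sexual over vegetative mycelium the authors' deposited table marked 9 as higher and 3 as lower, of which 7 were called here. In sexual mycelium over the pool it marked 6 as higher and 9 as lower, of which 12 were called here. In vegetative mycelium over the pool it marked 1 as higher and 5 as lower, of which 4 were called here. No member was marked in the opposite direction in any comparison.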

How the data were processed

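RNA sequencing of 9 libraries of Pyronema omphalodes was analysed from 1 deposited table. The authors deposited raw read counts per gene model, per the file headers, and the values are whole numbers with unequal totals. Lengths of the gene models stand in the same table, as does a score of −1, 0 or 1, which per the file headers is the consensus of the authors' own tests. The submitters' processing notes name CASAVA 1.8.2 and DESeq without their role. How reads were aligned and counted, on which build and with what strand setting, is not given in the sources used here. Scaffold positions and product descriptions were taken from the deposited table.

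Counts were tested in R 4.3.3 with edgeR 4.0.16 (filterByExpr, minimum count 10 and minimum total 15; TMM scaling; robust quasi-likelihood F-test, two-sided) in 1 fit over all 9 libraries and 4 groups, with 5 residual degrees of freedom. Each of 6 comparisons was adjusted by Benjamini-Hochberg over the 11787 genes tested, at 0.05. The fit was tested on simulated data. TPM was computed from the counts and the spliced length. Alternatives were RLE scaling, no filter, DESeq2 1.42.0, only the 2 groups compared, a replicate block, a test against a fold change of 1.5, and leaving out each library. In protoapothecia B, the shallowest library, 3 counts equal 0.537 unscaled CPM, a limit of counting error only.

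The members and the lists of other redox genes were chosen with earlier results of these data known. Members were named where they had the highest mean TPM of their class, belonged to a class of at most 3, or were among the 3 smallest p of their class at adjusted p below 0.05 in protoapothecia against sexual mycelium or sexual against vegetative mycelium, with a log2 fold change of at least 1, no overlap and at least 10 CPM in the higher group. In each list of other redox genes, up to 2 genes were named by the p, size, overlap and level criteria. All other genes named were chosen after their values were seen, such as PCON_09856, PCON_08184 and PCON_09798.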

Additional observations from a re-analysis of the deposited data

How the results depend on the processing

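No called difference of a member or a named gene reversed its direction under any alternative that gave an adjusted p, and 84 of the 129 calls of members over the 6 comparisons were kept under every such alternative. DESeq2 gave no adjusted p for 7 of the 129, of PCON_06978 and PCON_06979, and 2 of the 7 are among the 84. By comparison, 20 of 33 calls were kept against sexual mycelium, 23 of 29 against vegetative mycelium and 28 of 38 against the pool for protoapothecia, 6 of 10 and 7 of 15 for sexual mycelium against vegetative mycelium and the pool, and 0 of 4 for vegetative mycelium against the pool. Fitting only the 2 groups compared called 20 in place of 10 members for sexual against vegetative mycelium, 23 in place of 15 for sexual mycelium against the pool, and 9 in place of 4 for vegetative mycelium against the pool. The last comparison gave 7 in DESeq2 and 2 in the test against a fold change of 1.5. Leaving out 1 library gave 22 to 34 calls for protoapothecia against sexual mycelium, 26 to 32 against vegetative mycelium and 31 to 39 against the pool. It gave 6 to 15 for sexual against vegetative mycelium, 9 to 18 for sexual mycelium against the pool, and 0 to 6 for vegetative mycelium against the pool. These fits hold fewer libraries, and the cause of the other shifts was not tested.

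RLE scaling moved the median log2 fold change of all genes to 0.03, 0.27 and 0.23 for protoapothecia against sexual mycelium, vegetative mycelium and the pool. The TMM values are −0.14, 0.15 and 0.05. With RLE scaling 31, 32 and 38 members were called there. With a replicate block on the mycelium numbers, 29, 30 and 36 members were called for protoapothecia against sexual mycelium, vegetative mycelium and the pool, and 8, 13 and 3 in the mycelium comparisons. The numbers were not taken as paired, since the deviations of same-numbered libraries correlated at r = 0.119 for sexual with vegetative mycelium, −0.157 for sexual mycelium with the pool and −0.0431 for vegetative mycelium with the pool. Protoapothecia B, with 5583951 counts, limits what can be seen of the genes under about 1 CPM.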
